A study of Mus musculus with 4 samples.

Results

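Ednrb, Prom1, Gja1 and Olig1 are genes of radial glia and of the glial lineage, and each was followed here on 4 two-colour arrays of mouse neocortex at embryonic day 16. They were found by the gene symbol of the array's annotation, which gave 4 probes of 6856 in all, a single probe for each gene. The genes were chosen by measured values, because an earlier pass over replicates 2 to 4 had listed them among the progenitor and glial markers with the smallest p. Their ratios on those arrays are therefore given as a description without a test, and replicate 1 was not part of that choice.

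Each array compared RNA of a null mutant embryo sample, whose brain the labels call synaptically silent, with RNA pooled from 4 control replicates. All samples were neocortex on the C57BL/6 background, the null samples were labelled as biological replicates, and the labels name no treatment and no number of embryos per sample. Null RNA was in Cy3 on replicate 1 and in Cy5 on replicates 2, 3 and 4. For replicate 1 the labels disagree on the age, with day 14 in one field and day 16 in the others. Each value is a log2 ratio of both channels, and the numerator is not given in the sources used here. A positive value therefore cannot be read as higher or as lower in the null, and signs are as deposited. The orientation of replicates 2 to 4 was identical, so their signs can be set side by side. Replicate 1 had the dyes swapped, and its sign has to be reversed first unless the submitters already did so.

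Radial glia line the ventricle of the embryonic cortex, divide to give neurons, and later give rise to astrocytes and to part of the oligodendrocyte lineage. Around the stage studied here neurogenesis is under way and gliogenesis is beginning. Ednrb encodes the endothelin B receptor, a G protein-coupled receptor of glial progenitors, astrocytes, vessels and the neural crest. Prom1 encodes prominin, also called CD133, a cholesterol-binding membrane protein of the apical protrusions of neuroepithelial cells. Gja1 encodes the connexin Cx43, which forms gap junctions between radial glia and is later the main connexin of astrocytes. Olig1 encodes a basic helix-loop-helix transcription factor of oligodendrocyte precursors.

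Upstream sequences are shown for Ednrb, Prom1 and Gja1. The RefSeq promoter table (build GRCm38.p6) matched these 3 of the 4 genes and had no entry for Olig1. Each line gives the 250 bases before the annotated start, 5′ to 3′ on the gene's strand. They are chr14:103843702-103843951 on the minus strand for Ednrb, chr5:44101737-44101986 on the minus strand for Prom1 and chr10:56377050-56377299 on the plus strand for Gja1. For Prom1 the table has 2 starts, and the upstream one is shown.
Ednrb: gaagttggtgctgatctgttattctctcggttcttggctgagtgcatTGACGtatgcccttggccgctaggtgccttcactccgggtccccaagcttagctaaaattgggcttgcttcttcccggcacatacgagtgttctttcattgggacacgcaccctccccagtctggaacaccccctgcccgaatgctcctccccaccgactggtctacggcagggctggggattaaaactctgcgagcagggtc
Prom1: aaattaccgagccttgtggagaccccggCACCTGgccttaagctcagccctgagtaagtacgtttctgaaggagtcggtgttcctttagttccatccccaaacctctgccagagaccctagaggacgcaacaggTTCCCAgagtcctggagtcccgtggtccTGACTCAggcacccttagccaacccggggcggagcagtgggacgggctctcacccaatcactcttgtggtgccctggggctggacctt
Gja1: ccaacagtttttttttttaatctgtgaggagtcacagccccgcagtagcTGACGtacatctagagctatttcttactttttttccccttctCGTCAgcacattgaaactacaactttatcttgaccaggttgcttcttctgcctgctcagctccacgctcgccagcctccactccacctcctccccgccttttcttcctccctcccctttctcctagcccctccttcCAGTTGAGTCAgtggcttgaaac
Capitals mark matches, on either strand, to 5 short motifs. These were the E-box CANNTG bound by helix-loop-helix factors, the AP-1 motif TGANTCA, the core TGACG of the cAMP response element, the STAT motif TTCNNNGAA and the RBPJ motif TGGGAA.

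The window of Ednrb held 1 match, to TGACG. Prom1 held 1 match each to the E-box, to the RBPJ motif and to the AP-1 motif, the last at 88 to 82 bases before the start, and the window of its other start held 1 match, to the AP-1 motif. Gja1 held 2 matches to TGACG, 1 to the E-box and 1 to the AP-1 motif, and the last 2 shared 2 bases. Over all 32851 promoter windows of that length, 66.2% held the E-box, 21.6% the RBPJ motif, 17.8% TGACG, 7.02% the STAT motif and 6.75% the AP-1 motif. The 3 windows shown held no match to the STAT motif. A match shows only that these letters stand in the window.

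Of the 4 genes, Ednrb, Prom1 and Olig1 had positive ratios on each of replicates 2 to 4, and Gja1 had negative ratios on each of them. Ednrb had the largest mean, 0.80 ± 0.21 (SD, n = 3), a size of 1.74-fold. The ratios of Gja1 averaged -0.56 ± 0.33, or 1.47-fold in size, those of Prom1 0.54 ± 0.36, or 1.45-fold, and those of Olig1 0.29 ± 0.12, or 1.22-fold. A single sign on replicates 2 to 4 was held by 4 of the 4 genes and by 33.5% of the 5720 probes measured on these arrays. By direction, 3 of the 4 genes were positive on all 3 arrays, as were 16.3% of probes, and 1 was negative on all 3, as were 17.3%. Nothing is read from these counts, since the same arrays chose the genes.

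Over all probes, limma's test of the mean ratio against 0 with Benjamini-Hochberg adjustment called 0 of 5720 on replicates 2 to 4, that is 0%, so that no member passed. Before adjustment, 553 probes, or 9.67%, had p under 0.05 in this fit. The smallest adjusted p of the limma fit was 0.0788, for a probe outside the 4 genes. In bulk RNA, a change in the number of cells of a type and a change in RNA per cell cannot be told apart.

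**Figure D1:**
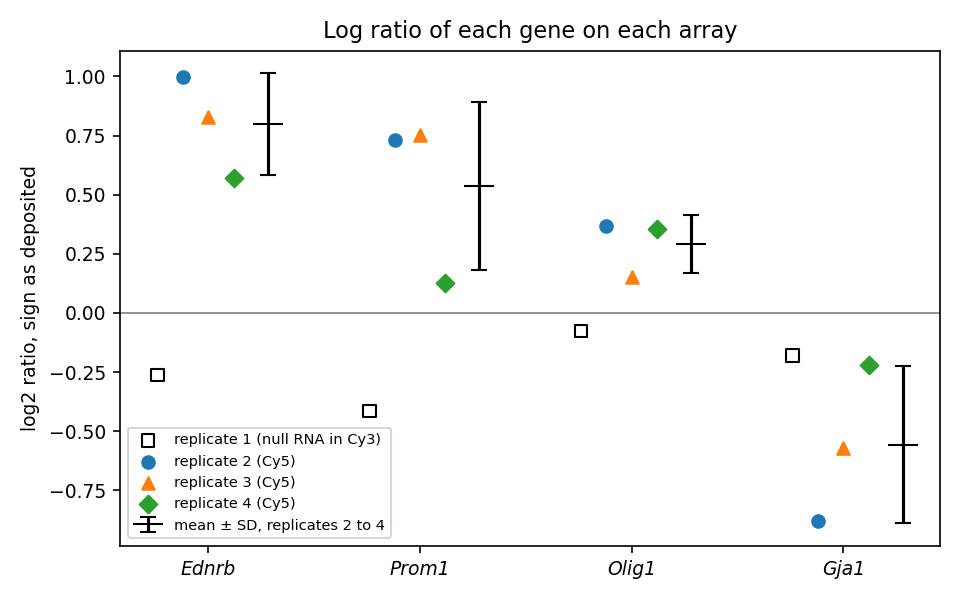
Log2 ratio (vertical axis, sign as deposited) of Ednrb, Prom1, Olig1 and Gja1 on each of the 4 arrays; open squares are replicate 1, with null RNA in Cy3, filled symbols are replicates 2 to 4, with null RNA in Cy5, and bars give the mean ± SD of replicates 2 to 4. The filled symbols lie above 0 for 3 genes and below 0 for Gja1, and all open squares lie below 0.

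Ednrb, the receptor, had log2 ratios of 1.00, 0.83 and 0.57 on replicates 2, 3 and 4, and -0.26 on replicate 1. The 3 arrays with null RNA in Cy5 were all high, and replicate 1 lay apart with the opposite sign as deposited. Of the 5720 probes, 47 had a more positive mean over replicates 2 to 4. Within its array Ednrb stood above 99.2% of probes on replicate 2, 92.8% on replicate 3 and 95.3% on replicate 4. On replicate 1 it stood above 25.5%, and 47.0% of the probes there were at least as far from 0.

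Prom1, the apical membrane protein, had ratios of 0.73, 0.75 and 0.12 on replicates 2, 3 and 4, against -0.41 on replicate 1. Replicates 2 and 3 were high and close to each other, whereas replicate 4 was near the middle of its array. The ratio exceeded that of 97.8% of probes on replicate 2 and of 91.1% on replicate 3, against 67.0% on replicate 4. Without replicate 4 the mean was 0.74, and without replicate 3 it was 0.43. On replicate 1, 28.4% of probes were at least as far from 0 as Prom1, which made it the member furthest from 0 on that array.

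Olig1, the transcription factor, had ratios of 0.37, 0.15 and 0.35 on replicates 2, 3 and 4, beside -0.077 on replicate 1. Its values were small and close together, with an SD below that of all but 14.9% of probes. Of the probes measured on replicates 2 to 4, 25.6% had a mean at least as large in size. On replicate 3, the array with the widest spread, 74.3% of probes were at least as far from 0 as Olig1.

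Gja1, the connexin, had ratios of -0.88, -0.57 and -0.22 on replicates 2, 3 and 4, and one of -0.18 on replicate 1. As deposited it was the member with a single sign on all 4 arrays, and its values on replicates 1 and 4 lay close together. A more negative mean over replicates 2 to 4 was found for 170 probes. Gja1 lay above 2.76%, 10.9% and 21.4% of probes on replicates 2, 3 and 4, and above 31.6% on replicate 1. Without replicate 2 its mean was -0.40, and without replicate 4 it was -0.73.

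**Figure D2:**
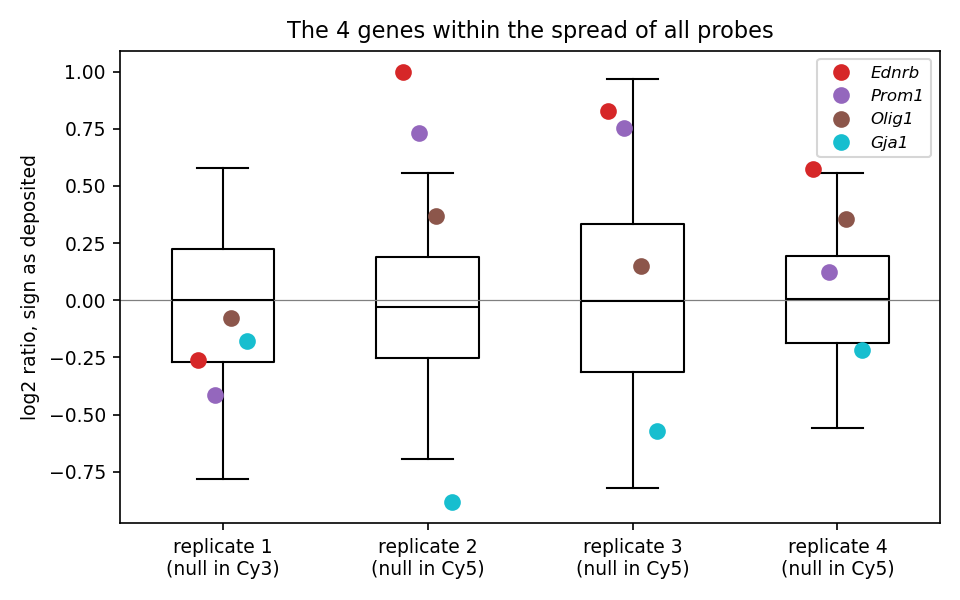
Boxes show the log2 ratios of all probes on each array (quartiles and median, whiskers from the 5th to the 95th percentile), and coloured points show the 4 genes, with the vertical axis as deposited. Ednrb lies beyond the upper whisker on replicates 2 and 4, Prom1 beyond it on replicate 2, Gja1 beyond the lower whisker on replicate 2, and all 4 genes lie within the whiskers on replicate 1.

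In the order of their means on replicates 2 to 4, Ednrb came first, then Prom1, Olig1 and Gja1. The difference Ednrb minus Prom1 was 0.27, 0.075 and 0.45 on replicates 2, 3 and 4, a mean of 0.26 ± 0.19 (SD, n = 3). Ednrb was the higher on all 3 arrays, although the ranges of both genes overlapped. Prom1 minus Olig1 was 0.36, 0.60 and -0.23 on replicates 2, 3 and 4, a mean of 0.25 ± 0.43, so that the order of this pair changed on replicate 4 and the difference was smaller than its spread. Olig1 minus Gja1 was 1.25, 0.72 and 0.57, a mean of 0.85 ± 0.35. The ranges of this pair could not overlap, since their signs were opposite on the arrays that chose them, and nothing is read from it. On replicate 1 as deposited, the 4 genes lay between -0.41 and -0.077.

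Replicate 1 bears on these signs in a way that depends on the unknown numerator. With replicate 1 turned, Ednrb, Prom1 and Olig1 had a single sign on all 4 arrays and Gja1 did not, which is 3 of the 4 genes, with 18.1% of 5687 probes over all. Nothing is read from this count either, since the genes had a single sign on replicates 2 to 4 by choice. Their means were then 0.66 ± 0.32 (SD, n = 4) for Ednrb, 0.51 ± 0.30 for Prom1, 0.24 ± 0.15 for Olig1 and -0.37 ± 0.46 for Gja1. With replicate 1 as deposited, only Gja1 among the 4 had a single sign, with 15.5% of probes over all, and the same holds for this count. The means were then 0.53 ± 0.56 for Ednrb, 0.30 ± 0.56 for Prom1, 0.20 ± 0.21 for Olig1 and -0.46 ± 0.33 for Gja1. Neither reading gave all 4 genes a single sign over 4 arrays.

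The arrays share a single control pool, so that their ratios have that RNA in common and leave out the spread between controls. Of 5687 probes on 4 arrays, limma with Benjamini-Hochberg adjustment called 0 with replicate 1 turned, or 0%, and 2 with it as deposited, or 0.0352%, neither of them a member.

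The likeness of other genes to each member was measured as the root mean square difference of log2 ratios over the 4 arrays as deposited, among 5023 other genes. Closest to Ednrb was Gad2, the GABA-synthesising enzyme of interneurons, at 0.13, with ratios of 0.92, 0.74 and 0.49 on replicates 2 to 4 and -0.042 on replicate 1. Next came the collagen gene Col6a3 at 0.17, the netrin receptor gene Unc5c at 0.17 and the zinc finger gene Zfp235 at 0.18. The median distance of a gene from Ednrb was 0.80. Prom1 was the closest of the other members, at 0.27, in place 27 of the 5023. Nothing is read from the place of 1 member by distance from another, here or below, since replicates 2 to 4 chose them.

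For Prom1 the closest genes were Ltbp2, a protein of extracellular microfibrils, at 0.12, the insulin receptor substrate Irs1 at 0.13, the mitochondrial ribosomal protein gene Mrps31 at 0.14 and the Notch ligand Dll4 at 0.15. Dll4 had 0.88 on replicate 2, 1.00 on replicate 3 and 0.17 on replicate 4. It was high and low on the same arrays as Prom1, which follows from its choice by distance. Ednrb took place 82 by distance from Prom1, and Olig1 place 421. For Olig1 the closest were Pik3ca, a catalytic subunit of phosphoinositide 3-kinase, at 0.069, Jpt1 at 0.070, the complement gene C1qa at 0.071 and Clec11a at 0.071. Distances were small there because Olig1 lay near 0, and the median gene was 0.42 away.

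Gja1 had the closest match of the 4 members in Hap1, the huntingtin-associated protein of neurons, at 0.047. Hap1 had ratios of -0.89, -0.53 and -0.14 on replicates 2, 3 and 4, with -0.20 on replicate 1. Sqor, the mitochondrial sulfide quinone oxidoreductase, followed at 0.095, Scamp5, a secretory carrier membrane protein, at 0.11, and Ltbp1, a binding protein of latent TGF-beta, at 0.11. By distance from Gja1, Olig1 was in place 3818, Prom1 in place 4742 and Ednrb in place 4891 of 5023. Nothing is read from these places, since the arrays that chose the members also set their opposite signs. These distances describe 4 arrays that share a pool, and with 4 values per gene close matches are frequent.

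**Figure D3:**
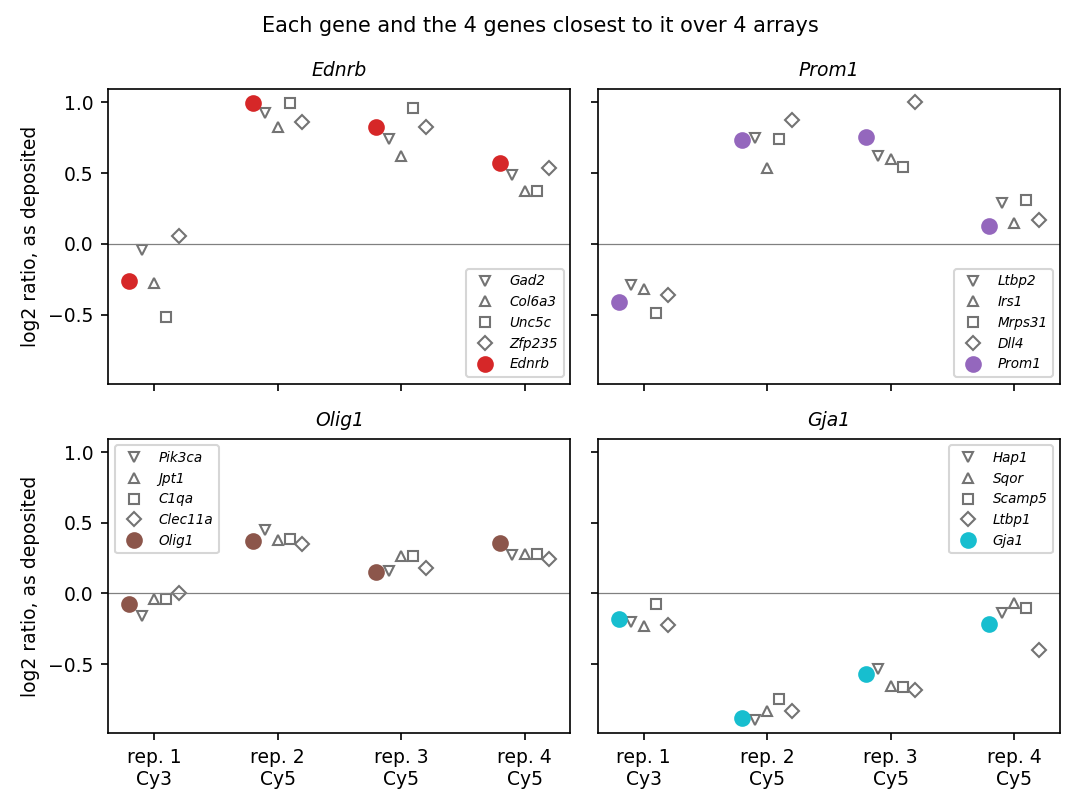
Log2 ratios on each array (vertical axis, as deposited) of each member, as filled circles, and of the 4 genes with the smallest root mean square difference from it, as open grey symbols. The neighbours of Ednrb and Prom1 are positive on replicates 2 to 4, and those of Gja1 are negative on all 4 arrays. They were chosen by likeness on these same arrays, so nothing is read from their signs.

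Other genes of radial glia and glia had ratios of both signs. Without the members, the list of radial glia and neural progenitors had 31 measured genes, of which 12 had a positive and 19 a negative mean on replicates 2 to 4. Its median was -0.065, beside -0.019 and 47.1% positive over all 5051 named genes. No gene of the list passed limma's adjusted threshold. At an unadjusted p under 0.05 there were 4 of 31, 1 positive and 3 negative, beside 9.46% of all named genes. That share is the one to set beside the same count for every list below. Leaving out 1 replicate at a time gave a median between -0.14 and -0.10, with 9 to 13 genes positive. Among the 33 measured genes with the members included, Ednrb ranked first from the top and Prom1 in place 3, with the leukaemia inhibitory factor receptor gene Lifr between them. Nothing is read from these ranks, since the same arrays chose the members.

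Lifr had 0.33, 0.51 and 1.01 on replicates 2, 3 and 4, a mean of 0.62 ± 0.35 (SD, n = 3), and -0.43 on replicate 1. The Notch effector Hey1 had a mean of 0.31 ± 0.30. The lowest means were those of the cortical homeobox gene Emx1, at -0.63 ± 0.37, and the progenitor factor Sox3, at -0.62 ± 0.21, both negative on all 4 arrays as deposited. Lifr, Hey1, Sox3 and Emx1 were named as the 2 highest and 2 lowest means of the list. The markers that define radial glia therefore had to lie between them. The intermediate filament genes Nes and Vim had 0.10 ± 0.15 and -0.29 ± 0.12, the transcription factors Pax6 and Sox2 had -0.047 ± 0.11 and 0.16 ± 0.44, and the glutamate transporter Slc1a3 had 0.042 ± 0.45. The Notch targets Hes1 and Hes5 had -0.059 ± 0.33 and -0.094 ± 0.17. With the exception of Vim, each of these 7 markers had a mean smaller than the SD between its replicates.

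Intermediate progenitors, the neuron-producing daughters of radial glia, had 8 of 12 genes positive by mean and a median of 0.077, with 0 genes at an unadjusted p under 0.05 in limma. None of the 12 was positive on every one of replicates 2 to 4, 3 were negative on every one, and the list medians on these arrays were -0.087, -0.0016 and 0.099. Eomes, which marks them, had -0.24 ± 0.13 (SD, n = 3), and Gadd45g had -0.22 ± 0.23. The proneural genes Neurog2 and Neurod4 had 0.29 ± 0.25 and 0.69 ± 0.97. Without replicate 4 the median of this list was -0.024.

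Astrocyte genes, the list of Gja1, had 14 of 18 negative and a median of -0.11, where 4 of 18 were positive beside 47.1% of all named genes. At an unadjusted p under 0.05 limma listed 2 of them, 1 in each direction, and 0 passed the adjusted threshold. Gja1 was the lowest of 19 with itself included, a rank from which nothing is read, since the same arrays chose it. Next were Nfix, a nuclear factor I gene of gliogenesis, at -0.48 ± 0.15 (SD, n = 3), and the glutamate transporter Slc1a2 at -0.43 ± 0.54. The glypican Gpc6 was highest, at 1.45 ± 0.73. Of the defining markers, Apoe had 0.15 ± 0.42, the chaperone Clu 0.080 ± 0.28 and the calcium-binding protein S100b -0.099 ± 0.54, all with means below their SD. With 1 replicate left out at a time, 12 to 15 of the 18 were negative.

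The oligodendrocyte list, to which Olig1 belongs, was split without it, with 10 of 19 genes positive and a median of 0.0087. Olig1 was in place 5 of 20 from the top. Olig2, its close relative, had -0.25 on replicate 2, 0.067 on replicate 3 and -0.22 on replicate 4, a mean of -0.13 ± 0.18 (SD, n = 3). On replicates 2 to 4 the highest value of Olig2, 0.067, lay below the lowest of Olig1, 0.15, both on replicate 3. Nothing is read from this gap or from the rank of Olig1, since the same arrays chose Olig1. The precursor markers Pdgfra, a growth factor receptor, and Sox10 had -0.23 ± 0.41 and -0.29 ± 0.57, and Mbp, a protein of myelin, had 0.0087 ± 0.29. Highest were Mal at 0.77 ± 0.30 and Omg at 0.71 ± 0.77, and lowest the proteoglycan Bcan at -0.63 ± 0.87 and the cell cycle inhibitor Cdkn1b at -0.73 ± 1.69. Limma listed 2 of 19 at an unadjusted p under 0.05, 1 in each direction. The median lay between -0.021 and 0.0090 with 1 replicate left out.

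Around Ednrb, the endothelin pathway list holds ligands, converting enzymes and the G proteins and phospholipases through which the receptor signals. It had 9 of 12 measured genes positive by mean and a median of 0.12, with 0 at an unadjusted p under 0.05 in limma. The list medians on replicates 2, 3 and 4 were -0.10, -0.012 and 0.13, and with replicate 1 added as deposited 6 of 12 were positive with a median of 0.015. The ligand Edn2 had -0.50 on replicate 2, 1.10 on replicate 3 and 1.05 on replicate 4, a mean of 0.55 ± 0.91 (SD, n = 3). Its sign thus differed between arrays on which Ednrb was positive throughout. Plcb4 had 0.22 ± 0.17, Plcb3 had -0.23 ± 0.079 and the inhibitory G protein subunit Gnai2 had -0.32 ± 0.37. Without replicate 4 the list had 6 of 12 positive and a median of 0.012.

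Around Gja1, 4 of 8 other connexins and gap junction partners were positive, with a median of -0.0098. Gjc1, another connexin gene, had 0.54, 0.58 and 0.28 on replicates 2, 3 and 4, a mean of 0.47 ± 0.17 (SD, n = 3), opposite in sign to Gja1 on each of them. The ranges of these 2 connexin genes on replicates 2 to 4 did not overlap, which follows from their signs. Gjc1 had the highest mean of the 8 and the same arrays chose Gja1, so nothing is read from this contrast. On replicate 1 Gjc1 had a ratio of -0.0011. Gja4, a connexin gene of vessels, had -0.37 ± 0.58, and the scaffold Tjp1 and the actin-binding protein Dbn1 had 0.21 ± 0.22 and -0.34 ± 0.53. A single gene of the 8 had an unadjusted p under 0.05 in limma. Without replicate 3, 6 of the 8 were positive and the median was 0.090.

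Signals that drive gliogenesis, such as the cytokines of the gp130 family, bone morphogenetic proteins and their transducers, were mixed. Of 38 genes 17 were positive, the median was -0.033, and 6 had an unadjusted p under 0.05 in limma, 2 positive and 4 negative. Lifr stood high, as above. Its partner Il6st, which encodes gp130, had 0.20 ± 0.35 (SD, n = 3) on replicates 2 to 4 and -2.45 on replicate 1, and Stat3, which acts downstream, had -0.14 ± 0.075. Gli2 had 0.87 ± 1.59, Bmp2 had -0.54 ± 0.078, and the neuregulin receptor Erbb3 had -1.18 ± 1.10. With replicate 1 turned and added, 22 of 38 were positive, and without replicate 2 there were 20, with a median of 0.039.

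**Figure D4:**
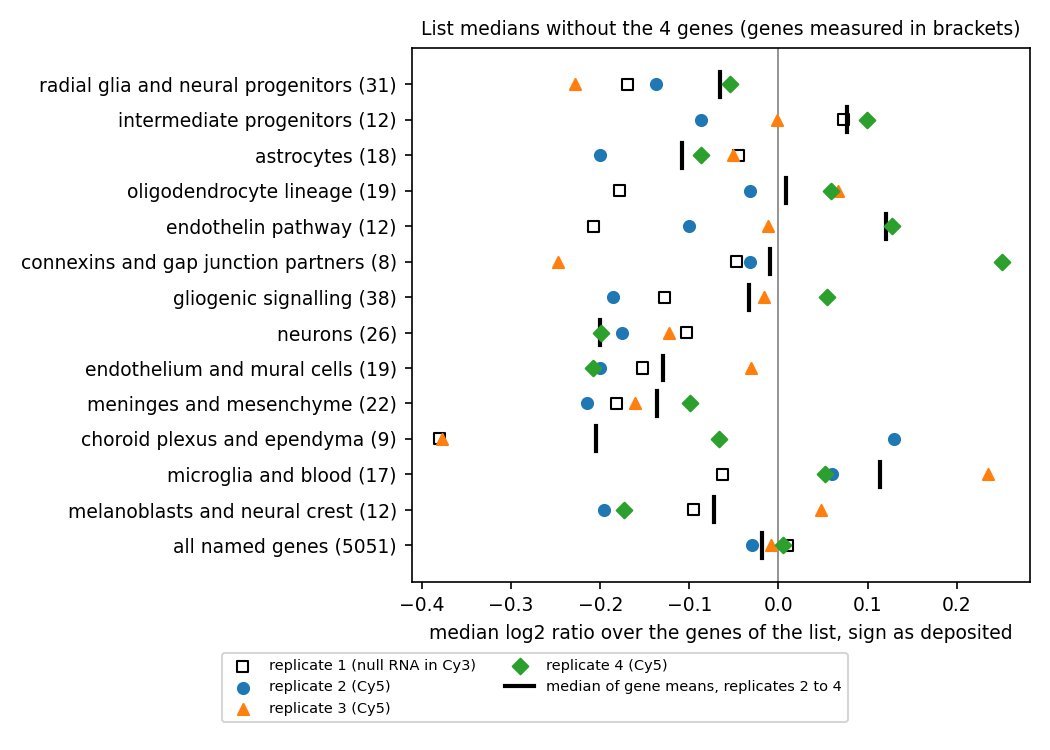
Median log2 ratio over the genes of each list (horizontal axis, as deposited) on each array, without the 4 members; symbols are arrays and black bars the median of gene means on replicates 2 to 4, with the number of genes in brackets. The black bars lie between -0.20 for choroid plexus and ependyma and 0.12 for the endothelin pathway.

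Several cell types beside radial glia can express these genes, and their marker lists give values to set beside the members. Gja1 is also abundant in the meninges, whose list had 15 of 22 genes negative and a median of -0.14, with medians between -0.22 and -0.099 on replicates 2 to 4 and 5 genes at an unadjusted p under 0.05 in limma, 2 positive and 3 negative. Foxc1, Dcn and Col1a1, which mark meninges and mesenchyme, had -0.38 ± 0.12 (SD, n = 3), -0.36 ± 0.22 and -0.16 ± 0.66. Ptgds had -1.36 ± 0.62 and Col6a1 -2.20 ± 1.46, against 0.68 ± 0.56 for Col5a1 and 0.45 ± 0.32 for Ogn. The part of meningeal RNA in the ratio of Gja1 was not tested.

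Endothelium and mural cells, which can express Ednrb and Gja1, had 12 of 19 genes negative and a median of -0.13, with medians between -0.21 and -0.031 on replicates 2 to 4. At an unadjusted p under 0.05 limma listed 5 of the 19, all negative. Cdh5 and Cldn5, both of endothelial junctions, had -0.41 ± 0.24 (SD, n = 3) and -0.18 ± 0.41, and Pecam1 and Kdr had 0.17 ± 0.62 and 0.20 ± 0.50. Sox17 was the lowest, at -1.41 ± 0.86, followed by Eng at -0.70 ± 0.92, and Icam2 and Emcn were the highest, at 0.39 ± 0.27 and 0.32 ± 0.91. Melanoblasts and neural crest, where Ednrb is known for its role in migration, had 8 of 12 other genes negative and a median of -0.072, with 2 at an unadjusted p under 0.05 in limma, both negative. The pigment cell genes Mitf, Dct, Tyr and Pmel had 0.054 ± 0.51, -0.024 ± 0.18, -0.25 ± 0.31 and 0.064 ± 0.10, Tyrp1 had -0.70 ± 0.48 and Ret 0.33 ± 0.61. Erbb3, also in this list, was its lowest gene, at -1.18 ± 1.10. The part of these cell types in the ratio of Ednrb was not tested.

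Choroid plexus and ependyma, epithelia that can carry Prom1, had 4 of 9 genes positive and a median of -0.20, and replicate 2 differed from the rest with a median of 0.13. Ttr and Foxj1 had -0.68 ± 0.53 (SD, n = 3) and -0.23 ± 0.44, Kl and Cldn2 had 0.62 ± 0.43 and 1.27 ± 0.71, and Msx1 had -2.52 ± 3.25. The part of these epithelia in the ratio of Prom1 was not tested. Genes of neurons had 21 of 26 negative and a median of -0.20, where 5 of 26 were positive beside 47.1% of all named genes. With 1 replicate left out at a time, 18 to 22 of the 26 were negative, and with replicate 1 turned and added, 17 were. Among the neuronal genes Gad2 was the highest, at 0.72 ± 0.22, and Dcx had 0.40 ± 0.21, Snap25 0.20 ± 0.050 and Map2 -0.027 ± 0.20. Syp had -0.43 ± 0.20, Neurod2 -0.44 ± 0.25 and Cux1 -0.49 ± 0.22. Limma listed 3 of the 9 choroid plexus and ependyma genes and 5 of the 26 neuronal genes at an unadjusted p under 0.05. The former were 2 positive and 1 negative, the latter 2 positive and 3 negative. Microglia and blood had 10 of 17 positive and a median of 0.11. At an unadjusted p under 0.05 in limma there were 7 of 17, 5 positive and 2 negative, beside 9.46% of all named genes. A single sign on replicates 2 to 4 was held by 11 of these 17 and by 1695 of all 5051 named genes. The neuronal list had 15 of 26 and choroid plexus and ependyma 7 of 9. Radial glia and neural progenitors had 13 of 31, 2 positive and 11 negative. Gliogenic signalling had 15 of 38, meninges and mesenchyme 11 of 22 and astrocytes 8 of 18. Endothelium and mural cells had 7 of 19, the oligodendrocyte lineage 5 of 19, and connexins and gap junction partners 1 of 8. Intermediate progenitors, the endothelin pathway, and melanoblasts and neural crest had 3 of 12 each. The microglial genes Tyrobp, Aif1, Ctss and Laptm5 had 0.56 ± 0.33, 0.11 ± 0.16, 0.90 ± 0.60 and 0.87 ± 0.36, Cd14 had -0.52 ± 0.98, and the globin genes Hba-a1 and Hba-x had -0.027 ± 0.36 and -0.74 ± 0.17. Because a ratio carries no level, the label of neocortex could not be checked against the levels of its markers.

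**Figure D5:**
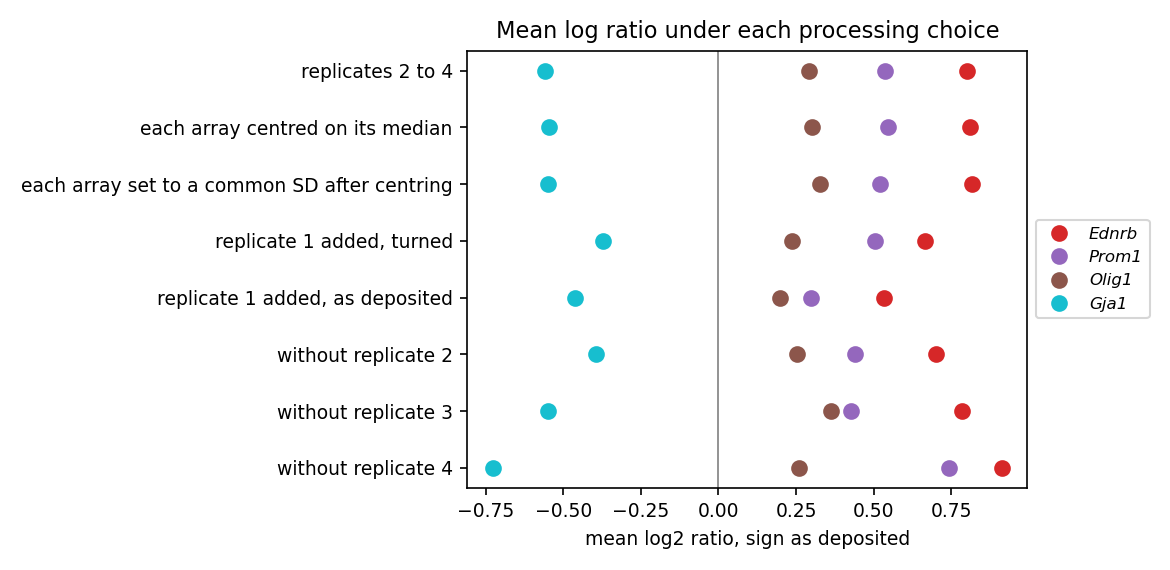
Mean log2 ratio (horizontal axis, as deposited) of each member under each processing choice, listed on the vertical axis. Ednrb, Prom1 and Olig1 stay above 0 and Gja1 below 0 in every line, and Ednrb comes down to 0.53 when replicate 1 is added as deposited.

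Between 5777 and 5873 probes had a value on each array, column medians lay between -0.031 and 0.0044, and replicate 3 had the widest spread, with an SD of 0.63 against 0.40 to 0.48 on the other arrays. Centring the arrays moved the members little, to 0.81 for Ednrb, 0.55 for Prom1, 0.30 for Olig1 and -0.55 for Gja1. With the arrays also set to a common SD, the means were 0.82, 0.52, 0.33 and -0.55 in the same order.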

How the data were processed

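RNA of 4 null samples was measured on 2-colour arrays against a control pool. The values deposited by the authors were taken as log2 ratios of both channels, from their size and their centre near 0. Each array had 1 column, and 0 other columns were present. For the log base, background correction, normalization and numerator, the sources used here give nothing, so signal over background is unknown, and the number of arrays limits the precision.

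Platform annotation named a single gene for 6269 of 6856 probes, several for 6 and none for 581, and Entrez IDs changed 0 symbols in the RefSeq table of GRCm38.p6. Arrays were grouped by the dye of the null RNA. Mean ratios over replicates 2 to 4 were tested against 0 with lmFit and eBayes of limma 3.58.1 (R 4.3.3), two-sided, with Benjamini-Hochberg adjustment over 5720 probes at 0.05, and checked on simulated data. The 4-array fits turned replicate 1 or kept it as deposited.

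Members, lists and motifs were chosen with earlier results of these data known. Lists were counted after averaging probes by symbol and without the 4 members. Genes named were the members, the 4 genes nearest to each, and for each list its fixed markers and the 2 highest and 2 lowest means. Alternatives covered centring, scale, the sign of replicate 1, replicates left out, the variance prior, array weights, missing values, probes averaged by gene, large values, a dye term and the threshold. The mutated gene is not reported here.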

Additional observations from a re-analysis of the deposited data

How the results depend on the processing

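The means of Ednrb, Prom1, Olig1 and Gja1 kept their sign under every alternative run, and 31 of 32 alternative means stayed within 1 SD between replicates. The exception was Ednrb with replicate 1 added as deposited, at 0.53. Leaving out 1 of replicates 2 to 4 gave 0.70 to 0.91 for Ednrb, 0.43 to 0.74 for Prom1, 0.25 to 0.36 for Olig1 and -0.73 to -0.40 for Gja1. These alternatives could not fail, because each gene had a single sign on those arrays. Leaving out 1 of them also cannot move a mean by 1 SD. Each member has a single probe, so that averaging probes could change nothing either. The count of 31 of 32 includes all of these alternatives.

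On replicates 2 to 4, limma's adjusted calls over all probes went from 0 to 1 with a robust prior or at an adjusted p of 0.1, and to 3 with array weights, none of them a member. Leaving out a replicate kept 0. With replicate 1 turned, the count went from 0 to 1 with a dye term. With it as deposited, the count went from 2 to 1 with a dye term and to between 0 and 1 without a replicate. The cause was not tested.

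Of the list medians, 86 of 91 alternatives stayed within the spread between arrays. With replicate 1 added as deposited, radial glia and neural progenitors had -0.17 and the oligodendrocyte lineage -0.11. With it turned, neurons had -0.072 and choroid plexus and ependyma 0.061. Intermediate progenitors ranged from -0.024 to 0.11 without a replicate. The cause was not tested. The counts of list genes by sign without a replicate were added after seeing the data. No paired analysis was possible because each null sample was set against the same pool and the groups share no replicate numbers. Signal over background is unknown, so the precision of single spots cannot be given.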
